A study of Mus musculus with 2 samples.

Results

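The regions described here are megabases of the mouse autosomes that held many H3K9me2 peaks and at least 1 protein-coding gene. They were chosen by their own peak counts: fixed bins of 1 Mb, counted from position 1 of each chromosome, in which the WT and KO lists together placed 100 or more peak midpoints and in which the midpoint of a protein-coding gene fell (by RefSeq's annotation of GRCm38.p6, which mm10 is built on). Of 2142 autosomal bins with a coding gene, 48 met the criterion, or 2.24%. They held 6178 of 59672 autosomal peaks and of 64157 peaks in all, 3049 from the WT library and 3129 from the KO library. These bins made up 1.99% of the autosomal bins and carried 10.4% of the autosomal peaks. Since peak numbers selected the bins, their height is a description and not a result.

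The study mapped H3K9me2 by CUT&Tag, an assay that tethers a transposase to antibody-bound histones so that it inserts sequencing adapters nearby. There were 2 libraries, both from activated B cells of C57BL/6 mice, 1 of wild-type genotype (WT) and 1 labelled jmjd1c B KO (KO). The way in which the cells were activated, the construct that removed Jmjd1c, the age of the mice and the number of mice behind a library are not given in the sources used here. With 1 library per genotype, no difference between them can be set against the spread between animals, and all intervals below are 95% intervals that cover counting error only.

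H3K9me2 is a histone mark laid down mainly by the methyltransferases G9a and GLP, and it forms broad domains over silent, gene-poor chromatin. Large genes that are used in neurons or other lineages often lie in such domains in blood cells. Jmjd1c belongs to the JmjC family of histone demethylases, whose relatives Kdm3a and Kdm3b remove methyl groups from H3K9. The Jmjd1c gene itself held 0 peaks in WT and 0 in KO, so the lists give no check of the genotype labels. Of 10 genes that define B cells, 0 had a peak, against 2 of 10 T cell genes (Themis and Bcl11b) and 1 of 8 myeloid genes (Adgre1). Over all autosomal coding genes, 10.2% had a peak in the body, and lists this short cannot be set apart from that share. The lists also counted peaks within 2 kb of the gene, whereas that share covers the body alone. A peak list measures no RNA, so the labelled cell type was not tested by these values.

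The resident genes included start sites with a peak in both libraries, start sites without any, and a pair of genes with identical upstream bases, and 6 examples show how different their sequences are. Each line gives the 200 bases before the annotated start site, read 5′ to 3′ on the strand of the gene, from RefSeq promoter windows of GRCm38.p6, with every CpG in capitals. Sema3c (chr5:17574616-17574815, plus strand) encodes a secreted axon guidance cue, and a peak lay over its window in both libraries. Meox2 (chr12:37108340-37108539, plus strand) encodes a homeobox factor of mesoderm, and its window too was overlapped in both. Themis (chr10:28668160-28668359, plus strand), a gene needed for T cell selection, had a peak of both libraries over its promoter window, but only the KO peak reached into the stretch shown, while the WT peak began just past the start site. Ptprk (chr10:28074620-28074819, plus strand) encodes a receptor tyrosine phosphatase, and its window met a peak in KO alone. Pdcd1 (chr1:94052554-94052753, minus strand) encodes the inhibitory receptor PD-1, and no peak touched its window. Gm15319 (chr8:20363203-20363402, minus strand) is a predicted gene of the defensin region. Its 200 bases are letter for letter those upstream of Gm21119 in the same bin. A read that lies wholly within them does not by itself tell the copies apart, and sequence beyond them was not compared.
Sema3c: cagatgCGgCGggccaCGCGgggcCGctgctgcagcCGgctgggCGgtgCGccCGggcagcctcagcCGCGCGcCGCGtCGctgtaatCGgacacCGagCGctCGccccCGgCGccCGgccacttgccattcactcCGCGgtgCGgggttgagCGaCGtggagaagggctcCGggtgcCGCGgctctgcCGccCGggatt
Meox2: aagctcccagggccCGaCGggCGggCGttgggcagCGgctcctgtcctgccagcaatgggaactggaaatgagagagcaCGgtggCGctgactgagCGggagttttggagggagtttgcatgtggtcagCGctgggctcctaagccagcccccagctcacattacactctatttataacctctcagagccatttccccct
Themis: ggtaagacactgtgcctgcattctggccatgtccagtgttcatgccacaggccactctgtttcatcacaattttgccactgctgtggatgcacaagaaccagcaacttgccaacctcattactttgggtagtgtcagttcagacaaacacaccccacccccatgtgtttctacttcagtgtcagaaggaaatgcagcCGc
Ptprk: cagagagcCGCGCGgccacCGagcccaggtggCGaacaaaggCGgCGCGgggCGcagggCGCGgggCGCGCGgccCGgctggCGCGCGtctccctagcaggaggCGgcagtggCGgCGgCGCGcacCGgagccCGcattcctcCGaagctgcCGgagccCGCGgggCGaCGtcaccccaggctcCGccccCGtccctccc
Pdcd1: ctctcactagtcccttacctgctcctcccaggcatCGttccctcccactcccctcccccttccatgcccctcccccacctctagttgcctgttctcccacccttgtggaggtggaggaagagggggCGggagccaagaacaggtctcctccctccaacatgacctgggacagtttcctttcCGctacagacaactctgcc
Gm15319: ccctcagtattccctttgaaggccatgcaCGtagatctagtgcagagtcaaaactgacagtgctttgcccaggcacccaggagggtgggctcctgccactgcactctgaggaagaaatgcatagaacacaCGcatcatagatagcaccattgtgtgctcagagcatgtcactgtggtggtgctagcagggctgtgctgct
The dinucleotide CG reads the same on both strands, so 1 count serves for both. The shown stretches held 32 CpG in Sema3c, 33 in Ptprk, 9 in Meox2, 3 in Pdcd1, 2 in Gm15319 and 1 in Themis. CpG-rich and CpG-poor start sites were therefore both among those with a peak.

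Across the 48 bins the count per bin ran from 44 over a median of 60.5 to 108 in WT, and from 47 over a median of 62 to 109 in KO. The median of both lists together was 122.5 peaks, against 15 over all 2413 autosomal bins. The bins were spread over 16 of the 19 autosomes, and chromosomes 5 and 13 had 6 each. Only 7 of the 48 touched another bin of the set. Residents numbered 175 coding genes, beside 151 pseudogenes, 132 lncRNA genes, 17 snRNA, 17 transcribed pseudogenes, 14 snoRNA, 8 miRNA and 2 tRNA genes. A bin held a median of 2.5 coding genes, and 17 bins held a single coding gene, 21 held 2 to 4 and 10 held 5 or more. The densest bin, with 108 WT and 109 KO peaks, lay on chromosome 5 and contained Speer1 and 3 predicted genes. Next came the bin of Gal3st2c, Neu4 and Pdcd1 on chromosome 1, with 97 and 95 peaks, and the bin of Htr1b, a serotonin receptor gene, on chromosome 9, with 86 and 89.

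At the threshold itself, the bins of Mctp1 (44 WT and 56 KO peaks) and of Cacna2d1 and Hgf (53 and 47) were just inside with 100 peaks each. Just outside lay the bins of Angpt1 (50 and 49), Gm40892 (52 and 47) and Prr16 (57 and 42) with 99 peaks each. The boundary thus runs through a continuous range of counts.

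**Figure D1:**
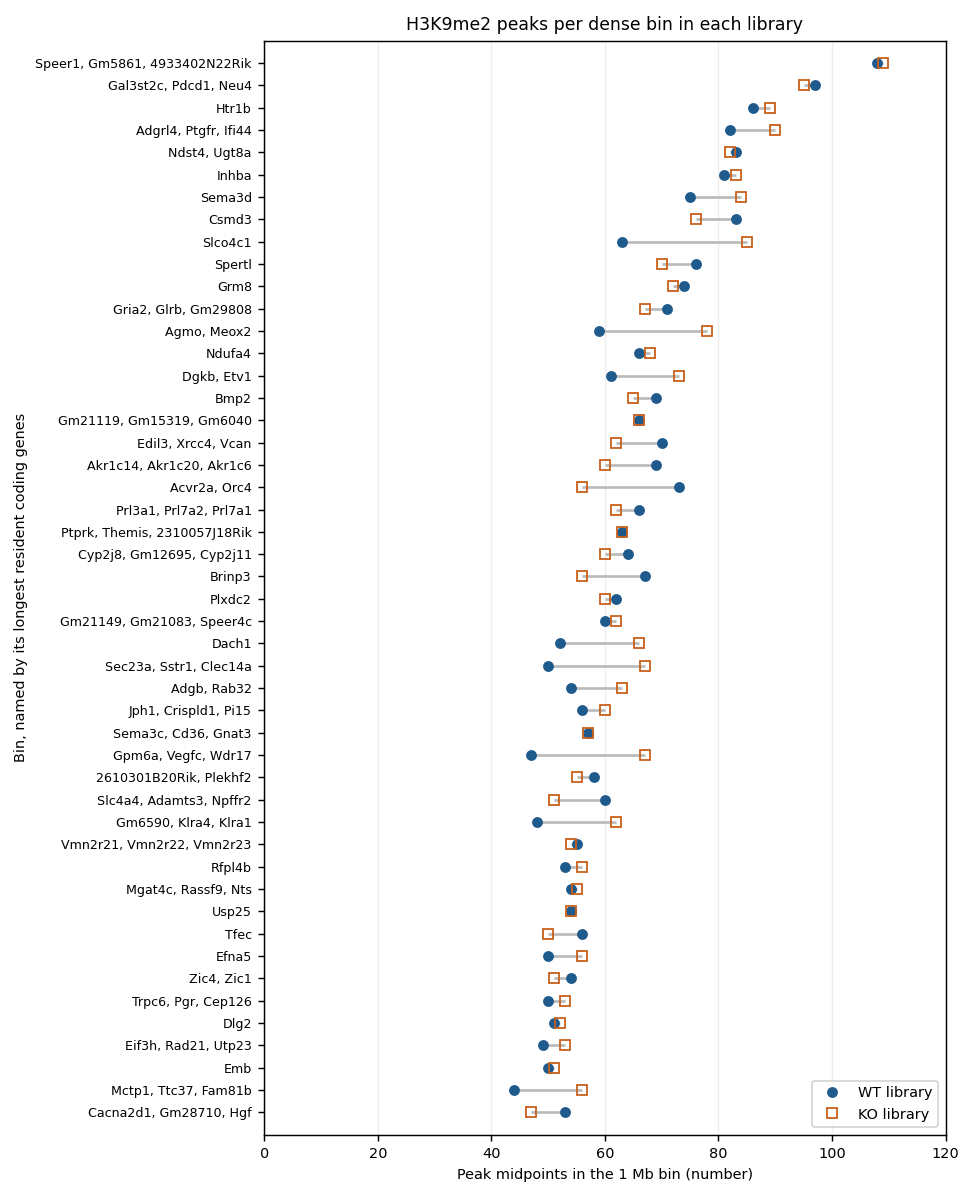
The plot shows the number of peak midpoints in each of the 48 dense 1 Mb bins, filled circles for the WT library and open squares for the KO library, with bins named by their longest resident genes and sorted by the sum. Both libraries lie close together in most bins, from 44 to 108 peaks in WT and from 47 to 109 in KO.

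As deposited, the WT and KO lists filled these bins to nearly the same extent. The KO to WT ratio of peak numbers was 1.03 (0.976 to 1.08) over the 48 bins, against 1.02 (1.005 to 1.04) over all autosomal bins, so the interval of the dense bins contains the autosomal value. Among the peaks of q at or below 1e-05 alone, the ratio in the same bins was 0.621, from 583 WT and 362 KO peaks. All autosomal bins together held 3880 and 2487 such peaks, so the WT excess was not particular to the dense bins. The direction of the ratio thus depends on that threshold. The q was computed with a different fragment length in each list, whose part in this was not tested. KO had more peaks in 24 bins, WT in 20, and 4 were equal. In 0 of the 48 bins did the interval of the split exclude the autosomal split, and among 1048 autosomal bins of 20 or more peaks that happened in 0.573%. The most KO-heavy bin was that of Gpm6a, Vegfc and Wdr17 on chromosome 8, with 47 WT and 67 KO peaks, a ratio of 1.43 (0.967 to 2.12). The bin of Slco4c1, an organic anion transporter gene, had 63 and 85, a ratio of 1.35 (0.963 to 1.90). The most WT-heavy bin was that of Acvr2a and Orc4 on chromosome 2, with 73 and 56, a ratio of 0.767 (0.532 to 1.10). Each of these intervals contains equality, and none of these splits is distinguishable from counting error.

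Positions coincided less fully than numbers. Of WT member peaks 60.7% (58.9 to 62.4) shared at least 1 bp with a KO peak, and of KO member peaks 59.6% (57.9 to 61.4) with a WT peak. At q of 1e-05 or lower in both lists the shares were 30.0% and 48.3%. In the other autosomal bins with a coding gene these shares were 44.6% and 43.9%, and in the 22 bins of 100 or more peaks without a coding gene 62.2% and 63.8%. More of the sequence was covered by peaks in dense bins, 3.87% in WT and 3.23% in KO against 0.584% and 0.481% in the sparser bins with a coding gene, and the part of this in the overlap was not tested. In windows of 100 kb the numbers of both lists rose and fell together: over the 480 windows of the dense bins, which share their bins and underlying sequence, Pearson's r between WT and KO counts was 0.821 and Spearman's rho 0.808. Per bin the shared fraction ranged from 47.8% in the Bmp2 bin to 86.7% in the bin of Speer4c and Speer4d for WT peaks.

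Member peaks were somewhat wider and higher than peaks of the sparser bins with a coding gene. The median WT member peak measured 518 bp and the median KO one 406 bp, against 484 and 372 bp in other bins with a coding gene. The median pileup of member peaks, a coverage signal from the authors' caller, was 32.3 and 23.8 against 25.4 and 19.1. The caller's fold enrichment went the other way, with medians of 2.51 and 2.84 in the dense bins and 2.70 and 3.06 in the sparser ones. That fold is taken over a local background, which itself contains the neighbouring reads. The lists were called with different modelled fragment lengths, 292 bp in WT and 189 bp in KO, so width, pileup and q are compared only within a list. Neighbouring midpoints of a list were a median of 9.63 kb apart in WT and 9.49 kb in KO, against 18.9 kb in each list in the sparser bins. In the dense bins without a coding gene the median widths were 544 and 437.5 bp and the median pileups 29.2 and 22.2.

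Relative to genes, the peaks leaned slightly away from coding gene bodies. Every bin holds a coding gene by the rule, so that the peaks lie in bins with genes is not a result. Coding gene bodies, introns included, took up 31.1% of the length of the dense bins and held 26.5% (24.9 to 28.1) of WT and 26.2% (24.6 to 27.8) of KO midpoints. The intervals lie below the share of length. Density was 54.1 WT and 54.9 KO peaks per Mb inside coding bodies and 67.8 and 69.8 outside. In the other bins with a coding gene the contrast was steeper, 7.97 and 8.17 inside against 12.4 and 12.7 outside. Choosing bins by density can in itself lessen such a contrast. Genes of other kinds took up 10.1% of the dense bins and held 11.5% of WT and 11.1% of KO midpoints, and 62.1% and 62.7% lay outside any annotated gene.

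Density varied less with distance from a coding gene inside the dense bins than in the other bins. Outside coding bodies, density in the dense bins was 65.6 WT and 60.03 KO peaks per Mb in the first 10 kb from a gene and 78.9 and 78.3 beyond 250 kb. Over the other coding bins it was 6.28 and 6.47 in the first 10 kb and 17.1 and 17.7 beyond 250 kb. Within coding bodies the dense bins ranged from 45.4 to 60.8 WT peaks per Mb over the 6 classes of distance from the nearer gene end, with no steady trend, while in the other bins the density was 4.58 in the first 10 kb and 16.5 beyond 250 kb. The rule chose bins on density, which sets the height of these profiles and can in itself also flatten their shape. The difference in shape is therefore a description, and it was given no test.

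Start sites were the exception. Within 0.5 kb of the 172 annotated start sites in the dense bins lay 25 WT and 28 KO midpoints, a density of 157 (102 to 232) per Mb in WT and 176 (117 to 254) in KO, against 63.5 (61.3 to 65.8) and 65.2 (62.9 to 67.5) over the whole of these bins. Between 0.5 and 1 kb it was 32.1 and 45.0 per Mb, and from 5 to 10 kb it was 55.0 and 55.7. The other ends of the same genes showed no such rise, with 27.9 and 20.9 per Mb within 0.5 kb, from 4 and 3 peaks. With the 9 bins of multigene families left out, 13 peaks of each list lay within 0.5 kb of 85 start sites, or 171 (90.8 to 292) per Mb in each, a value inside the intervals of the full set. Between 1 and 2 kb the dense bins stood at 75.7 and 52.7 per Mb. The other bins with a coding gene had 15.02 and 15.4 per Mb within 0.5 kb, 3.51 and 3.60 between 1 and 2 kb and 10.4 and 10.6 over the whole bins. The shapes of these profiles were not compared by a test.

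**Figure D2:**
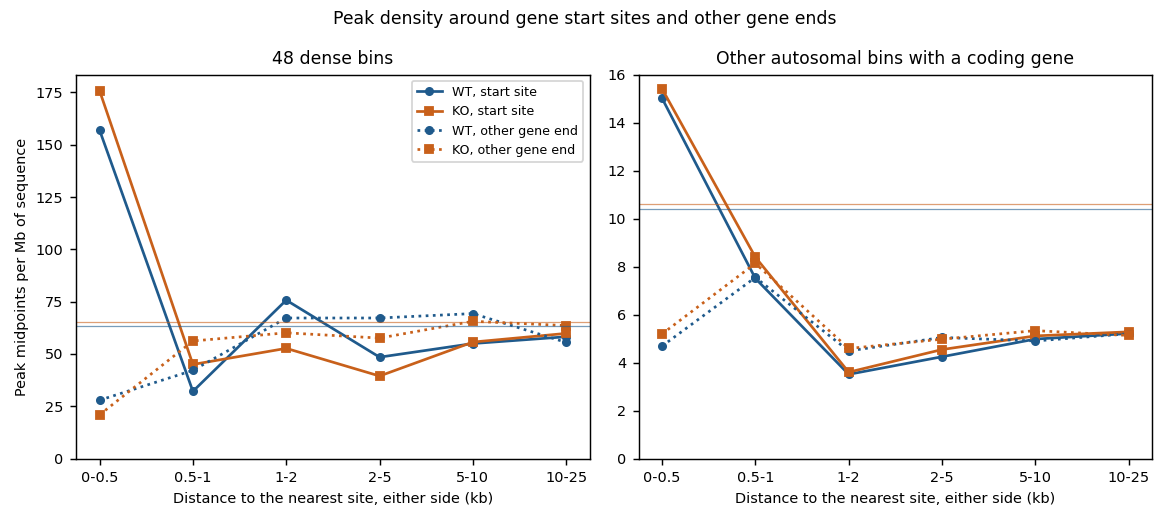
The plot gives peak midpoints per Mb of sequence by distance from the nearest gene start site (solid lines) or the opposite gene end (dotted lines), circles for WT and squares for KO, with thin horizontal lines at the whole-bin mean and with separate vertical scales for the 2 panels. In the 48 dense bins the first 0.5 kb stands at 157 in WT and 176 in KO and the next class at 32.1 and 45.0.

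Of the 175 residents, 146 matched a RefSeq promoter window, which runs from 250 bases before to 50 bases after a start site. A peak of either list overlapped a window of 33 genes, or 22.6% (16.1 to 30.3), against 1.96% of all autosomal coding genes with a window. The share in the dense bins is raised by the density that chose them. WT peaks overlapped windows of 25 genes, KO peaks of 24, and both of 16. Those 16 were Brinp3, Cacna2d1, Clec4b1, Cyp2j8, Cyp2j11, Gm12695, Gm15319, Gm21119, Gm21190, Meox2, Mgat4c, Sema3c, Sema3d, Speer1, Themis and Wdr17. The peaks at the Sema3c sequence shown above were short, 302 bp in WT and 189 bp in KO, the latter exactly the modelled fragment length, whereas those at Meox2 spanned 2107 and 1880 bp. Over the 146 residents with a window, the median window held 3 CpG, against 15 over all autosomal genes with a window. Of these residents, 36 or 24.7% held 10 or more, against 60.9%. All of the 36 but Sema3c were among the 67 residents with a window outside the 9 bins of multigene families. The low CpG counts therefore describe mainly the residents of those family bins, and less the residents of the other dense bins. Within the dense bins a peak touched 11 of 36 genes with 10 or more CpG and 22 of 110 with fewer, or 30.6% of the former. Over all autosomal genes with a window the shares were 1.70% and 2.36%, so the order was the opposite, and the difference was not tested.

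Most residents carried at least 1 peak in the gene body. In 114 of the 175 genes, or 65.1% (57.6 to 72.2), a midpoint of either list fell in the body, against 10.2% of the 20554 autosomal coding genes, again a share that the choice of bins raises. The share rose with gene length, from 40 of 80 genes under 20 kb over 45 of 63 genes of 20 to 100 kb to 29 of 32 genes of 100 kb or more, or 90.6%. Over all autosomal coding genes the shares in these classes were 4.95%, 8.68% and 40.2%. Density per Mb did not rise in step: it was 51.2 in each list for the shortest class, 46.5 WT and 45.2 KO for the middle class and 54.0 and 55.3 for the longest. Because they are long, the 32 largest genes held 73.5% of the WT and 74.6% of the KO member peaks in coding bodies. Counts for single genes below refer to the whole body, which can extend beyond the bin.

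Several of the genes with many peaks are known from synapses and neuronal signalling, and some are very long. Dlg2 (chr7:90476188-92449246), which encodes the postsynaptic scaffold PSD-93, fills its bin entirely and had 98 WT and 95 KO peaks over 1973 kb. Csmd3 (chr15:47580638-48792558), a large transmembrane protein gene of the brain, had 75 and 68. The metabotropic glutamate receptor gene Grm8 had 56 and 51. Gpm6a, a neuronal membrane glycoprotein gene, had 18 and 23, and Brinp3, expressed in the nervous system, had 16 and 11. Among the channels, the calcium channel subunit Cacna2d1 had 14 and 11 and the cation channel Trpc6 had 10 and 13. KO to WT ratios had wide intervals, from 0.723 to 1.30 for Dlg2 and from 0.643 to 1.28 for Csmd3, and each contained 1.

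Another set of residents is known from the extracellular matrix, guidance and adhesion, with counts from high to very low. Edil3, an integrin ligand, had 52 and 41 peaks, Adamts3, a procollagen-processing protease, 18 and 18, and Adgrl4, an adhesion receptor of endothelium, 13 and 15. The semaphorin genes Sema3d and Sema3c had 11 and 12, and 6 and 9. Efna5, an ephrin gene, had only 5 and 5 over 278 kb. Vcan, which encodes the proteoglycan versican, had 1 and 1, while Hapln1, a hyaluronan link protein gene in the same bin, had 5 and 3 in a shorter body. Plxdc2, a transmembrane receptor gene, had 25 and 23, and Ptprk 30 and 26.

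Enzymes and transporters made up a further group. Dgkb, a diacylglycerol kinase, had 43 WT and 59 KO peaks, a ratio of 1.37 (0.911 to 2.08). Mgat4c, a glycosyltransferase gene, had 21 and 31, a ratio of 1.48 (0.822 to 2.70). Agmo, which cleaves ether lipids, had 25 and 30, and Ndst4, a heparan sulfate sulfotransferase, 13 and 10. The bicarbonate transporter gene Slc4a4 had 13 and 9. Mctp1, a calcium-binding membrane protein gene, had 36 and 40. Of developmental transcription factor genes, Dach1 had 20 and 29, Meox2 2 and 6, and Etv1 0 and 1. The intervals of Dgkb and Mgat4c both contain equality.

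Some residents are known from the immune system, and they were named after their values were seen. Themis (chr10:28668360-28883820) had 22 WT and 23 KO peaks. Its density was 102 per Mb in WT and 107 in KO, whereas the rest of its bin stood at 52.3 and 51.0. Pdcd1, Neu4 and Gal3st2c had 0 peaks in a bin with 97 and 95. The lectin-like receptor genes of the Klra group, which natural killer cells use, are described with the families below. Tfec, a factor of the MiT family found in macrophages, had 7 and 10 peaks over 67.5 kb.

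Whether a long gene was denser than its surroundings differed from gene to gene. Of the 31 genes of 100 kb or more that leave part of their bin free, 14 had more peaks per Mb within the bin than the rest of it, both lists summed. Adgrl4 (chr3:151437882-151545081) stood at 121 WT and 140 KO peaks per Mb against 77.3 and 84.0 outside. Efna5 went the other way, at 18.0 and 18.0 against 62.4 and 70.7, as did Gria2, an AMPA receptor subunit gene, with 0 and 8.14, from 1 KO peak, against 80.9 and 75.2. Vegfc, a lymphatic growth factor gene, had 9.18 and 36.7 against 51.6 and 70.7.

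**Figure D3:**
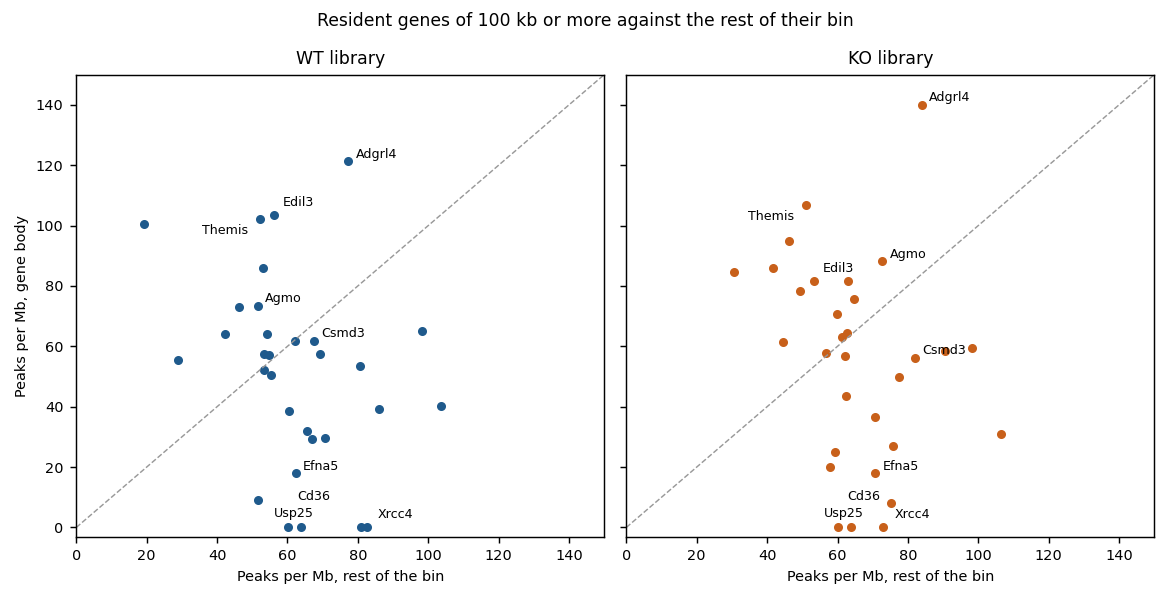
Each point is 1 of the 31 resident genes of 100 kb or more with part of their bin outside them, with peaks per Mb in the whole gene body on the vertical axis and in the rest of the bin on the horizontal axis, WT left and KO right, and the dashed line marks equal density. Adgrl4 and Themis lie above the line in both libraries, and Efna5, Usp25, Cd36 and Xrcc4 below it.

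Many peak-free genes lay together in long stretches without a peak. Of the 61 residents without a peak in the body, 40 were shorter than 20 kb and 21 were longer. For 28 of the 61 the nearest peak was 20 kb or more away, and for 36 the midpoint lay in the longest peak-free stretch of the bin. In 20 of the 48 bins that stretch reached 100 kb or more, it held the midpoint of a coding gene in 15 of these 20, and it touched an edge of the bin in 12. The 3 peak-free genes of 100 kb or more were Xrcc4, a DNA end-joining factor, at 241 kb, Cd36, a fatty acid and scavenger receptor, at 107 kb, and Usp25, a deubiquitinating enzyme, at 103 kb. Others were Acvr2a, an activin receptor, Orc4, of the origin recognition complex, Sec23a, of the COPII vesicle coat, Eif3h, of a translation initiation factor, and Rad21, of cohesin.

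Several bins combined a dense stretch with an empty one. Emb, which encodes embigin, lay in the first 346 kb of its bin, which had no peak. The Mctp1 bin was empty over 231 kb, with Rfesd, Arsk and Ttc37 in that stretch. In the bin of Eif3h, Rad21, Utp23 and Gm52217 the last 287 kb, with all 4 genes, was empty, and the other part of the bin carried 49 WT and 53 KO peaks. The last 214 kb of the Acvr2a and Orc4 bin, 250 kb around Ndufa4, 239 kb around Plekhf2 and 2610301B20Rik and the first 181 kb around Usp25 were likewise free of peaks. The first 117 kb of the Pdcd1 bin had none, and the 3 genes lay there. The bins of Eif3h, Acvr2a, Ndufa4, Plekhf2, Usp25, Pdcd1 and Spertl were the 7 bins without any midpoint in a coding body. In the Spertl bin a gene covers 0.153% of the sequence. The Emb and Mctp1 bins did hold midpoints in coding bodies. All these stretches were cut at the bin edges, so those at an edge can run on beyond the stated length. Within a single bin the longest, 402 kb, lay in the bin of Speer4c and Speer4d and held no gene midpoint. Assembly gaps and unmappable sequence in these stretches were not examined here.

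**Figure D4:**
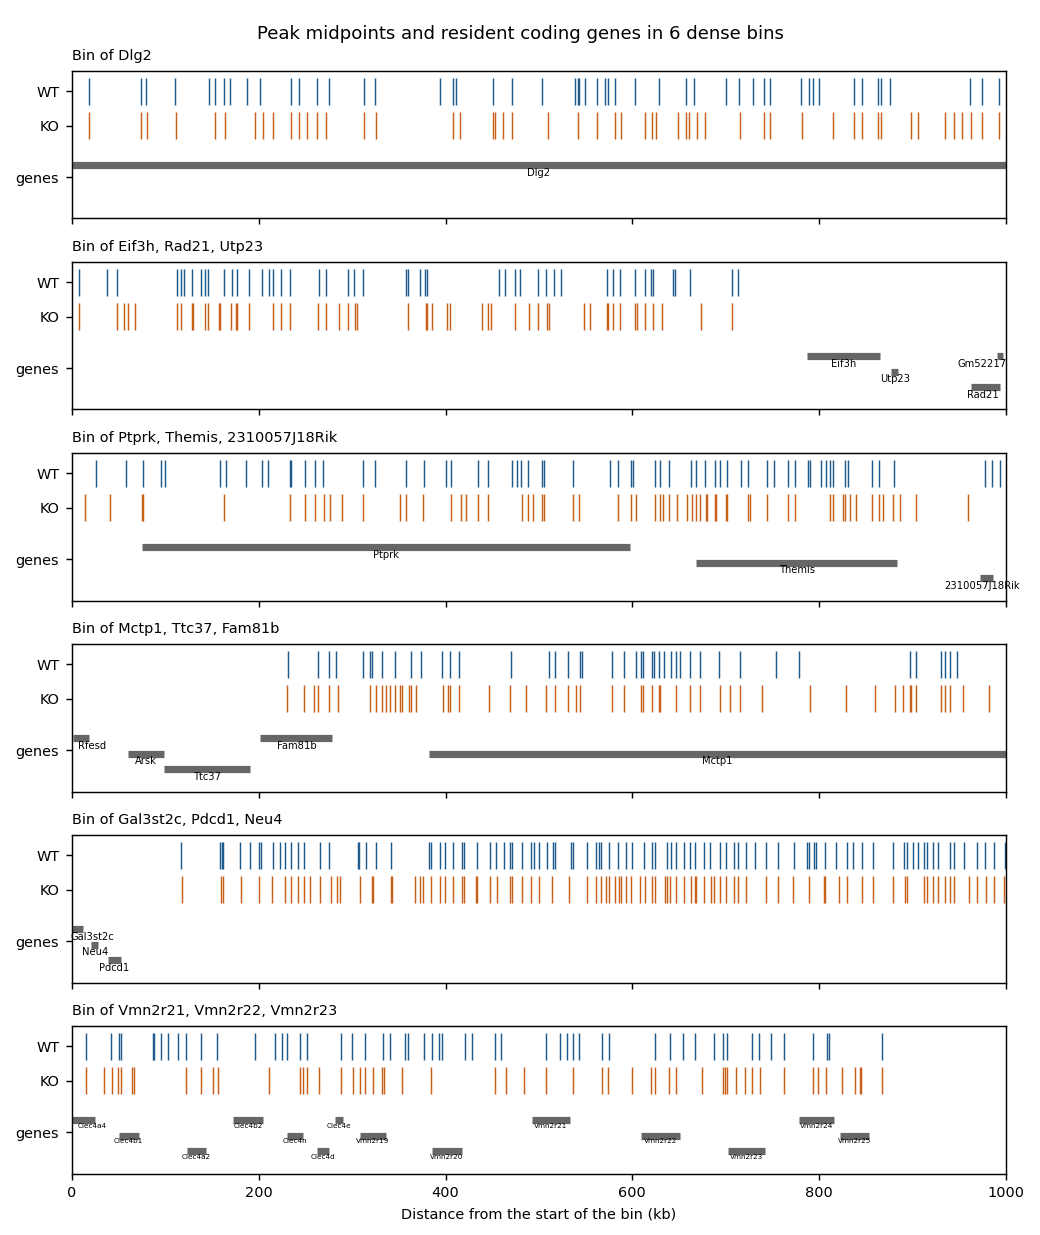
Ticks mark the peak midpoints of the WT and KO lists along 6 dense bins, by distance from the start of the bin in kb, and grey bars mark the resident coding genes below (those named in the plot). Dlg2 is filled from end to end, the peaks of the Mctp1 bin begin after 231 kb, the last 287 kb of the Eif3h bin are empty, and the 3 genes of the Pdcd1 bin lie in its first 117 kb, where there is no peak.

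Windows of 100 kb were also grouped by how much coding gene body they held. Of all 480 windows in the dense bins, 26 were empty, or 5.42%. Windows without coding gene body, 232 of the 480, held a mean of 7.09 WT and 7.40 KO peaks, and 3.02% were empty. The 84 windows wholly inside a gene body held 5.52 and 5.65, and 2.38% were empty. The 164 windows partly covered by a gene body held 5.74 and 5.71, and 10.4% were empty. The fullest window had 43 peaks of both lists.

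Gene families taken by symbol had few members among the residents, as did coding genes at large, of which 175 of 20554, or 0.851%, were resident. Of 1103 olfactory receptor genes, 96 cadherin and protocadherin genes and 415 zinc finger genes, 0 were resident. Residents also included 3 of 70 guidance genes, 2 of 48 synaptic genes and 3 of 188 developmental transcription factor genes. The last 3 were Zic1, Zic4 and Dach1, since the list taken by symbol did not hold Meox2 or Etv1. Cytochrome P450 and Ugt genes contributed 8 of 121, all with a peak, and Speer and spermatogenesis-associated genes 6 of 40. Of those 8, all but Ugt8a were Cyp2j genes of 1 bin, and so were chosen together. These counts are descriptions, and with so few members most are too small to set apart from the overall share.

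Tandem gene families taken by symbol (Akr1c, Clec4, Cyp2j, Klra, Prl, Speer and Vmn2r) held 63 of the 175 residents. Defensin genes and predicted genes in the same bins were not counted among them. Their counts are uncertain where copies are alike, and how alike they are along their bodies was not examined here. All 7 Cyp2j genes, fatty acid epoxygenases, carried peaks, 21 WT and 16 KO in their bodies. So did all 7 resident Vmn2r pheromone receptor genes with 15 and 20, all 7 Clec4 lectin genes with 8 and 8 and all 8 Akr1c aldo-keto reductase genes with 9 and 8. The 21 prolactin family genes, which act in placenta and pituitary, had 6 and 5, in 8 of them. The 5 Speer genes, in 3 bins, had 4 and 5, in 4 of them. Their short bodies gave 160 WT and 200 KO peaks per Mb from these few peaks. Among all 175 residents, 65.1% had a peak in the body. Per Mb, Cyp2j bodies held 69.2 WT and 52.7 KO peaks, in a bin of 64 and 60. Akr1c bodies held 52.2 and 46.4 per Mb in a bin of 69 and 60, and prolactin family bodies 36.5 and 30.4 in one of 66 and 62. In a shared bin of 55 and 54, Clec4 bodies held 54.4 and 54.4 per Mb, and Vmn2r bodies 60.03 and 80.04. Of 8 Klra genes 3 had a peak, 0 in WT and 3 in KO, whereas their bin held 48 and 62. Pileups of 100 or more occurred in only 2 of the 48 bins in WT and 2 in KO, the Speer4c bin with 10 and 3 such peaks and the defensin region bin of Gm15319 with 4 and 2. Those bins also had the highest median pileups, 68.4 and 51.0 in the Speer4c bin and 44.4 and 33.5 in the defensin bin, and the highest shares of WT peaks overlapped by KO, 86.7% and 80.3%.

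Peak numbers fell off within a megabase or so on either side. The bin before a dense bin had a median of 69 peaks and the bin after it 47.5, or 48.5% and 40.4% of the dense bin. At a distance of 2 Mb the medians were 44 and 29.5, at 3 Mb 25 and 39.5 and at 5 Mb 26 and 35, against 15 over all autosomal bins. Since the centre was selected for its height, a fall on both sides follows in part from the choice. In 17 of the 48 bins both neighbours were below 50% of the centre, in 22 1 neighbour reached 50%, and in 9 both did. A neighbour of 100 or more peaks occurred beside 15 bins, and 6 had a neighbour above their own count.

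Some dense bins ended abruptly. The bin of the Clec4 and Vmn2r genes, with 55 WT and 54 KO peaks, was an island, with 2 and 4 before it and 0 and 0 after it. The Rfpl4b bin on chromosome 10, with 53 and 56, had 1 and 2 before it and 0 and 0 after it. Before the Pdcd1 bin lay 2 bins with 18 and 22 coding genes and 0 peaks, and after it bins with 79 and 148 peaks. The Bmp2 bin, with 69 and 65, was preceded by 1 and 1 and followed by 17 and 31, and the Plekhf2 bin, with 58 and 55, was followed by 0 and 0. By contrast the Agmo and Dgkb bins on chromosome 12 adjoined and were followed by a further bin of 61 and 67 peaks without a coding gene midpoint, and the Sema3d bin adjoined that of Speer1. The 13 adjacent bins of under 10 peaks held a median of 13 coding genes (1 to 41), the 51 adjacent bins of 50 or more peaks a median of 2 (0 to 7).

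**Figure D5:**
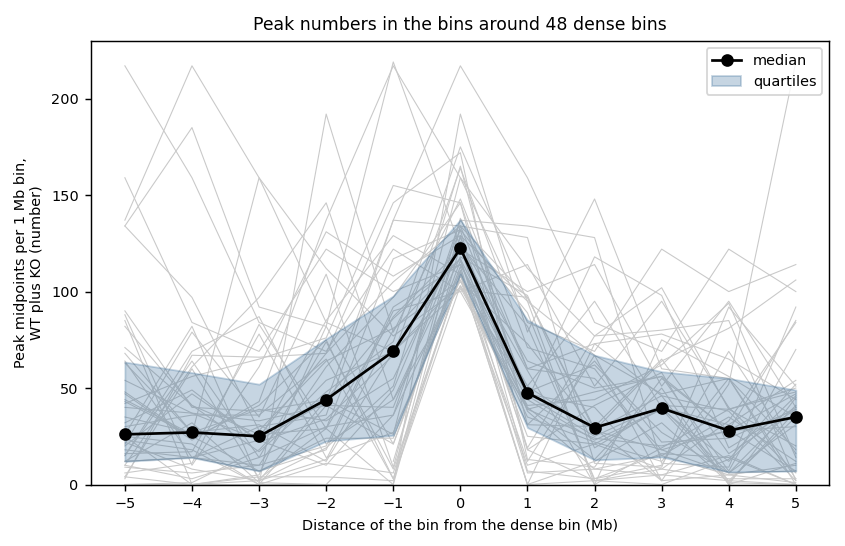
Grey lines give the WT plus KO peak midpoints per 1 Mb bin from 5 Mb before to 5 Mb after each of the 48 dense bins, with the median in black and the quartiles shaded. The median is 69 in the bin before, 122.5 at the centre and 47.5 in the bin after, while single lines run from 0 to over 200 in the adjacent bins.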

How the data were processed

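The deposited data were 2 lists of broad peaks, from 1 WT and 1 KO library, assigned to genotypes by their labels. Named in the submitters' processing notes, without roles, are mm10, deepTools, HOMER, MACS2, Picard, Bowtie2 2.4.2, SAMtools 1.11 and Trim Galore 0.6.6. Per the file headers, the authors ran MACS2 2.2.7.1 on each library in its broad mode, without a control, with duplicates kept and a q cutoff of 0.01, from 33474010 WT and 34502392 KO tags. The deposited pileup is a coverage signal, not scaled between libraries, and the deposited p-value and q-value are on a −log10 scale. The authors' fold enrichment is a ratio to local background. These columns described or filtered peaks within a list.

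Peaks were assigned by midpoint, counted from 1, to fixed 1 Mb bins and to gene bodies (Python 3.11.15, pandas 2.3.3, numpy 2.4.6, scipy 1.17.1). Genes came from RefSeq (GRCm38.p6), less 348 of scaffolds. Shares have exact Clopper-Pearson intervals, ratios exact conditional binomial and densities exact Poisson intervals, all 95% and for counting error only. No p-value was calculated, since each genotype has 1 library. The functions were tested on simulated data. Exons, and the sequence under peaks, were not used here. Named genes were the longest residents of each bin, all residents of 100 kb or more and those with the most peaks; others (peak-free genes, immune genes, start sites with a peak in both lists) were named after their values were seen. Members and lists were chosen with earlier results of these data known. Alternatives changed the q, bin and gene thresholds, the grid, the overlap, merging, tall peaks and, added after seeing the data, left out the bins of gene families. A few resident or neighbouring genes are not reported here by name.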

Additional observations from a re-analysis of the deposited data

How the results depend on the processing

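The KO to WT ratio moved only with the q filter: among peaks of q at or below 1e-05 it was 0.621. All autosomal bins also held more WT than KO peaks at that filter, 3880 and 2487. That filter also gave WT and KO overlapped shares of 30.0% and 48.3% and a WT share in coding bodies of 24.2%. With 80 or more peaks there were 116 bins, with coding shares of 30.8% and 30.9% of peaks (35.1% of length), overlapped shares of 56.5% and 56.5% and a neighbour level of 48.3% of the centre (47.8% as reported). With 120 or more there were 26 bins, coding shares of 24.9% and 23.9% (30.2% of length) and a KO overlapped share of 63.0%. Merging peaks within 5 kb raised the overlapped shares to 66.5% and 66.7%, and a reciprocal overlap of 50% lowered them to 40.8% and 39.8%. A grid shifted by 500 kb gave a neighbour level of 52.5% and 46 bins, of which 30 overlapped one of the 48, so which megabases qualify depends on the grid. The causes of these shifts were not tested. In the remaining alternatives (tall peaks or predicted genes left out, KO peaks widened, any gene overlap, gene family bins left out) the values stayed within their intervals or, for bins, between 48 and 52. No paired analysis was possible because each genotype has 1 library. Depth limits single genes: with a few peaks each, only large differences could be seen.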

Other observations

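On the X chromosome 0 of 151 bins with a coding gene reached 100 peaks, and 1 bin without one did. These bins lie outside the autosomal criterion and were compared with nothing else.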
